A study of Homo sapiens with 17 samples.

Results

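The later phase of a NOTCH3 induction course was compared with the phase before it in IMR32 cells, a human neuroblastoma line with amplified MYCN. Both clones studied, c6 and c8, carry a doxycycline-inducible construct for NOTCH3IC, the intracellular and active part of the receptor NOTCH3. The 4 arrays labelled 48 and 72 (1 per clone and time) were set against the 4 arrays labelled 12 and 24, with the clone as a block, so 8 of the 17 arrays of the course entered the comparison. Per the labels, doxycycline was the inducer in both clones, so the arrays of 48 and 72 and those of 12 and 24 all follow its addition. The remaining arrays were taken at times 0, 4, 8 and 96 of both clones and 120 of c6, and the times are printed as labelled, with no unit stated. No culture kept without doxycycline after time 0 was analysed here, so NOTCH3IC, doxycycline and time in culture cannot be told apart. Each line is 1 clone, and within a clone the 2 times of a phase serve as its replicates. Nothing says that the arrays came from separate cultures, so p-values measure only the spread between these arrays.

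Notch receptors are cleaved when a ligand such as JAG1 on a neighbouring cell binds them. The released intracellular domain joins the DNA-binding protein RBPJ and activates genes such as those of the HES and HEY families, whose products are transcriptional repressors. In blood vessels NOTCH3 is known for its role in smooth muscle cells and pericytes, the mural cells that surround the endothelium. Neuroblastoma arises from the sympathoadrenal lineage of the neural crest, and its cells can hold an adrenergic (neuron-like) or a mesenchymal expression state.

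NOTCH3 itself, whose probe set cannot be assigned to the construct or to the native gene, stood at 467 and 424 in c6 and at 794 and 703 in c8 at times 48 and 72. At times 12 and 24 it stood at 205 and 446 in c6 and at 780 and 1028 in c8. All signals here are deposited array intensities, listed in the order of the times given. The groups overlapped, and the log2 change was 0.14 ± 0.22 (standard error over 8 arrays, adjusted p = 0.885, limma). At time 0 the signal was 94.6 in c6 and 218 in c8, and each of the 8 arrays stood above the time 0 signal of its clone.

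Of 13675 genes tested, 26 passed an adjusted p of 0.05 (0.19%), 21 of them higher at 48 and 72 (0.154%) and 5 lower (0.0366%). Of the genes that rose, 20 did so by at least 2-fold, and of those that fell, 2 did. For each of the 26, the arrays of 48 and 72 lay beyond those of 12 and 24 within both clones, and for 24 of them all 4 later arrays lay beyond all 4 earlier ones. GRK5 and COL4A4 were the exceptions. Over all genes tested, 8.91% did not overlap within both clones, 3.92% higher and 4.99% lower, and 3.65% had all 4 arrays of one phase beyond all 4 of the other (1.66% higher). At an unadjusted p under 0.05, 1369 genes were reached (10%), 4.74% higher and 5.27% lower. With a term for each time over all 17 arrays, 121 genes passed (0.885%, 0.651% higher and 0.234% lower), among them 24 of the 26. The other two were CXCR4 and DCX. For comparison, 1470 genes passed the test at 12 and 24 against time 0 (10.7%, 6.79% higher and 3.96% lower). The comparisons share the arrays of 12 and 24.

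**Figure D1:**
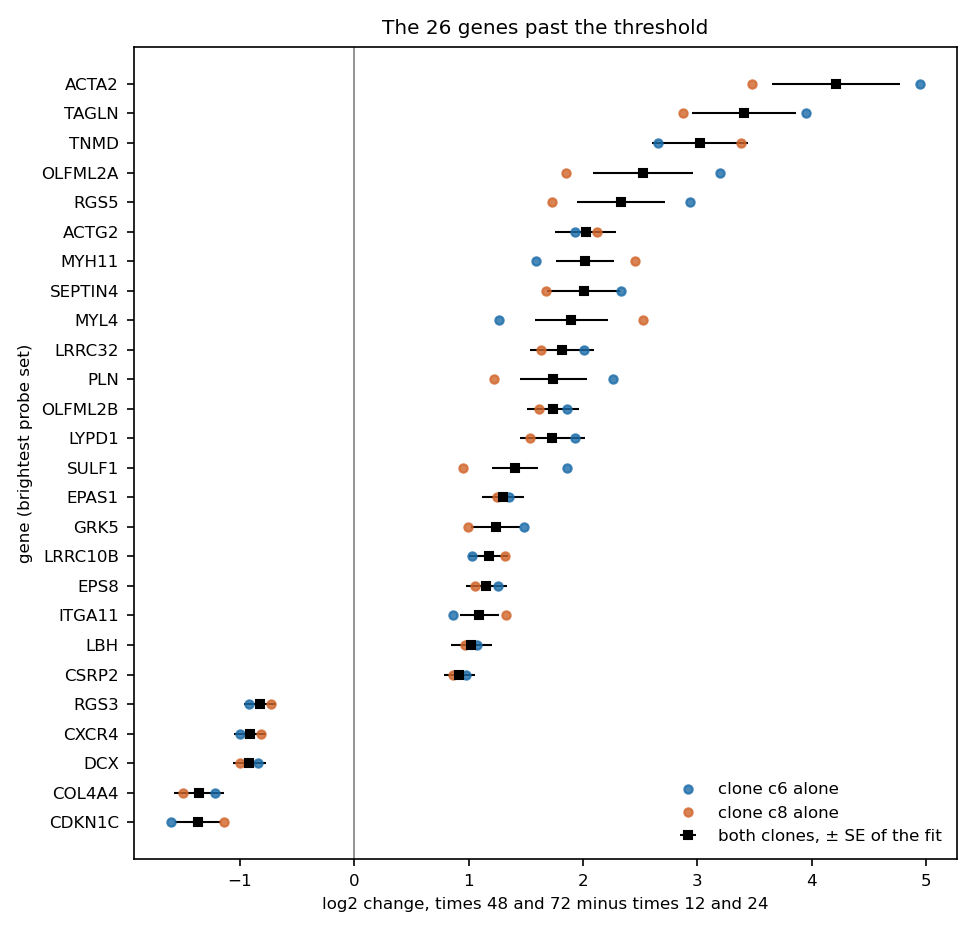
Log2 change at times 48 and 72 against times 12 and 24 for each gene past an adjusted p of 0.05, as estimate and standard error over 8 arrays, with the change within clone c6 and within clone c8 beside it. The 21 genes that rose run from 0.92 (CSRP2) to 4.21 (ACTA2), and the 5 that fell from -0.82 (RGS3) to -1.37 (CDKN1C).

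The number of genes called depended on single arrays. Without the c6 array of time 12 the count was 189, without the c8 array of time 24 it was 186, without the c6 array of time 48 it was 19 and without the c8 array of time 48 it was 1. Without any 1 of the other 4 arrays (c6 at 24 and 72, c8 at 12 and 72) it was 0 in limma, with 746 to 1402 genes at an unadjusted p under 0.05. Several genes described below as not passing did pass with 1 array left out. Without the c6 array of time 12 these were HEY1, COL3A1, ACTN1, PDLIM5, ID4, LGALS1, S100A4, IGFBP5, GMNN, CHAF1B, MCM2, MYBL2, AEN and BST2, and without the c8 array of time 24 they were HES1, HEY1, JAG1, CNN1, COL3A1, GUCY1A1, COL4A1, TIMP4, ACTN1, PDLIM5, NRP1, ID4, LGALS1, S100A4, IGFBP5, GMNN, CHAF1B, MCM2, AEN, IFI44 and KCNQ1OT1. HEY1 also passed without the c6 array of time 48, and LGALS1 without the c8 array of time 48.

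Genes of the contractile apparatus of smooth muscle led the rise. ACTA2 (smooth muscle alpha actin) had signals of 2094 and 4732 in c6 and 4343 and 5768 in c8 at times 48 and 72. At times 12 and 24 it had 78.6 and 96.2 in c6 and 128 and 1393 in c8. All 4 later arrays were above all 4 earlier ones, and the c8 array of time 24 lay between the other earlier arrays and the later ones. The log2 change was 4.21 ± 0.56, or 18.5-fold (adjusted p = 0.0205), with 4.94 in c6 and 3.48 in c8. ACTA2 averaged a log2 change of 1.39 at 12 and 24 against time 0 (adjusted p = 0.093) and of 5.60 at 48 and 72 against time 0.

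TAGLN (transgelin, an actin-binding protein of smooth muscle) had 240 and 582 in c6 and 465 and 901 in c8 at 48 and 72, against 11.4 and 7.6 in c6 and 23.2 and 194 in c8 at 12 and 24. It rose by 3.41 ± 0.46 on the log2 scale (10.6-fold, adjusted p = 0.0205). In c6 its signal was under 16, the constant added before the logarithm, on each of the 5 arrays up to time 24. In c8 it was above that constant from time 12.

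ACTG2 (the gamma actin of smooth muscle) had 101 and 189 in c6 and 109 and 230 in c8 at 48 and 72, against 23.3 and 26.3 in c6 and 12.2 and 41.5 in c8 at 12 and 24. It rose by 2.02 ± 0.27 (4.06-fold, adjusted p = 0.0205), with 1.93 in c6 and 2.12 in c8. The promoter of ACTG2 is printed here because, among the 15 genes that rose and had a promoter window, only it matched the strict CArG pattern. The CArG box is the element bound by serum response factor at many contractile genes. ACTG2 was picked after the search was seen. CArG boxes, read as CC, then 6 bases that are each A or T, then GG, are in capitals. The window covers 250 bases before to 50 after the annotated start at chr2:73892758-73893057 of GRCh38.p14 (RefSeq, plus strand), and the boxes begin at -110 and -73.
ACTG2: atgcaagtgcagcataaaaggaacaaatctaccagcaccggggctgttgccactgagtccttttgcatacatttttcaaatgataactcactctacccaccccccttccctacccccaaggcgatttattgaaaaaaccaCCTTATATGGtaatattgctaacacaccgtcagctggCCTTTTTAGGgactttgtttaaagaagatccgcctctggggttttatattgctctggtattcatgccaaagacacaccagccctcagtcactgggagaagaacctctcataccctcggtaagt

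A promoter window was matched for 15 of the 21 genes that rose and 4 of the 5 that fell. A CArG box was in 1 of 15 windows of genes that rose and in 0 of 4 of genes that fell, and 1.29% of all 27305 promoter windows held one on either strand. CCAAT was in 4 of 15 and 1 of 4, and in 35.7% of all windows. CATTCC, the core letters of the element bound by TEAD factors, was in 1 of 15 and 0 of 4, and in 14% of all windows. Only exact matches of the CArG pattern were counted, so boxes with other bases in the middle would be missed. The window of ACTA2 held 0 exact matches, and TAGLN had no window. A match is a description of these letters and not a bound site.

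MYH11 (the heavy chain of smooth muscle myosin) had 38.2 and 83.8 in c6 and 105 and 127 in c8 at 48 and 72, against 9.9 and 7.2 in c6 and 2.1 and 15.8 in c8 at 12 and 24. It rose by 2.02 ± 0.25 (4.05-fold, adjusted p = 0.0205). PLN (phospholamban, an inhibitor of the calcium pump of the sarcoplasmic reticulum) had 45.6 and 102 in c6 and 75.1 and 69.6 in c8, against 2.0 and 1.5 in c6 and 9.4 and 40.7 in c8, and rose by 1.74 ± 0.29 (3.34-fold, adjusted p = 0.043). Both genes were dim at 12 and 24, where the added constant sets most of the log2 value, so their folds are understated. MYL4 (an essential light chain of myosin, known from embryonic muscle and the atrium) rose by 1.90 ± 0.32 (3.72-fold, adjusted p = 0.0418), with 1.27 in c6 and 2.53 in c8. Its 4 probe sets gave changes between 1.37 and 1.90. The probe sets used for MYH11 and MYL4 belong to a class that can also bind related transcripts.

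**Figure D2:**
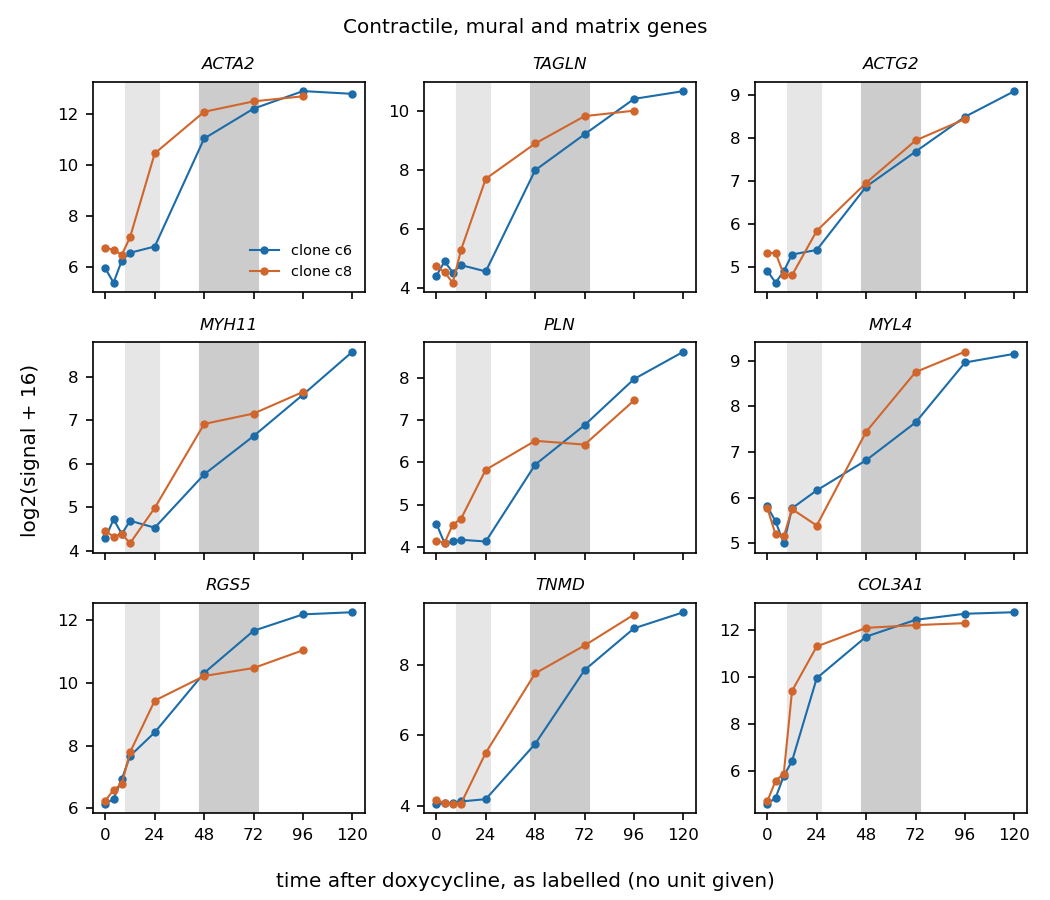
Array signal of 9 genes by time as labelled, for clones c6 and c8, on a log axis. ACTA2, TAGLN, ACTG2, MYH11, PLN, MYL4, RGS5 and TNMD rose at 48 and 72 against 12 and 24, while COL3A1 had all later arrays above the earlier ones of its clone and an adjusted p of 0.144.

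Of 23 smooth muscle contractile genes tested, 5 rose (ACTA2, TAGLN, ACTG2, MYH11 and PLN) and 0 fell. The median log2 change of the list was 0.61, against -0.02 over all genes tested. Of the 23, 11 were higher without overlap within both clones, against 3.92% of all genes tested. Over all 17 arrays 9 rose and 0 fell, the further 4 being ACTN1, MYLK, TPM1 and LMOD1. Among members that did not pass on the 8 arrays, MYLK (myosin light chain kinase) changed by 1.12 ± 0.22 (adjusted p = 0.083), CNN1 (calponin) by 0.82 ± 0.21 (adjusted p = 0.175) and TPM1 (a tropomyosin) by 0.78. CNN1 had 42.6 and 67.0 in c6 and 90.0 and 116 in c8 at 48 and 72, against 15.0 and 33.2 in c6 and 35.1 and 73.8 in c8 at 12 and 24. DES (desmin, a filament protein of muscle) had a change of -0.44 ± 0.19 and a highest signal of 14.2 at 48 and 72, against 24.5 at 12 and 24. Not every muscle gene of the list was higher at 48 and 72.

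RGS5 (a regulator of G protein signalling used as a pericyte marker) had 1252 and 3197 in c6 and 1170 and 1398 in c8 at 48 and 72, against 188 and 326 in c6 and 205 and 674 in c8 at 12 and 24. It rose by 2.33 ± 0.38 (5.04-fold, adjusted p = 0.0375), with 2.93 in c6 and 1.73 in c8. Of the other RGS5 probe sets, 3 gave 2.19 to 2.30 and 2 dimmer ones gave -0.30 and -0.64. Over the called genes, 18 had several probe sets and in 9 of those all had 1 sign. RGS5 had a change of 2.13 at 12 and 24 against time 0 (adjusted p = 0.001). RGS5 was the only 1 of 13 pericyte and mural genes that rose, and 0 fell. Of the others, GUCY1A1 (a subunit of soluble guanylate cyclase) changed by 0.61 ± 0.17, MCAM (an adhesion molecule) by 0.97 ± 0.32 and PDGFRB (the receptor that marks pericytes) by -0.25 ± 0.37. PDGFRB had 86.9 and 56.3 in c6 and 83.9 and 62.7 in c8 at 48 and 72, against 16.6 and 95.5 in c6 and 180 and 146 in c8 at 12 and 24, and its phases overlapped in c6 and not in c8.

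Other genes that rose act in the matrix and at its receptors. TNMD (tenomodulin, a membrane glycoprotein known from tendon) had 38.2 and 217 in c6 and 202 and 363 in c8 at 48 and 72, against 1.4 and 2.2 in c6 and 0.7 and 29.5 in c8 at 12 and 24. It rose by 3.02 ± 0.42 (8.11-fold, adjusted p = 0.0245) and its signal was at most 2.0 on each array of times 0, 4 and 8. OLFML2A and OLFML2B, olfactomedin-like secreted proteins, rose by 2.52 ± 0.44 (adjusted p = 0.0488) and 1.74 ± 0.23 (adjusted p = 0.0205). SULF1, an enzyme that removes sulfate from heparan sulfate outside the cell, rose by 1.41 ± 0.20, and ITGA11, the alpha chain of a collagen-binding integrin, by 1.09 ± 0.17. LRRC32, a surface protein that holds latent TGF-beta, rose by 1.82 ± 0.28 (3.53-fold, adjusted p = 0.0315).

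The remaining genes that rose have varied roles. SEPTIN4 (a filament-forming GTPase) rose by 2.01 ± 0.32, with 94.0 and 148 in c6 and 138 and 127 in c8 at 48 and 72, against 18.2 and 4.8 in c6 and 9.6 and 67.6 in c8 at 12 and 24. LYPD1, a membrane-anchored protein that acts on nicotinic receptors, rose by 1.73 ± 0.28. EPAS1 (HIF-2 alpha, a hypoxia-inducible transcription factor) rose by 1.30 ± 0.19 (2.47-fold, adjusted p = 0.0245), with 51.9 and 83.8 in c6 and 77.8 and 104 in c8 against 12.9 and 19.8 in c6 and 20.4 and 38.9 in c8. GRK5, a kinase of G protein-coupled receptors, rose by 1.24 ± 0.21, EPS8, an actin-capping adaptor, by 1.15 ± 0.18, LBH, a transcriptional cofactor, by 1.02 ± 0.18 and LRRC10B, a leucine-rich repeat protein, by 1.18 ± 0.17. At 12 and 24 LRRC10B had a log2 change of -0.54 against time 0 (adjusted p = 0.079). CSRP2, a LIM protein known from smooth muscle, had the smallest rise of the 21, 0.92 ± 0.13 (1.89-fold, adjusted p = 0.0245). Its signals were 2447 and 2981 in c6 and 2558 and 2655 in c8, against 1358 and 1370 in c6 and 1131 and 1795 in c8.

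The 5 genes that fell had each risen at 12 and 24 against time 0 (adjusted p of at most 3.7e-05), in a test that shares the arrays of 12 and 24. CDKN1C (p57, an inhibitor of cyclin-dependent kinases) had 628 and 553 in c6 and 589 and 854 in c8 at 48 and 72, against 1967 and 1683 in c6 and 2240 and 1106 in c8 at 12 and 24. It fell by 1.37 on the log2 scale (SE 0.20, 2.58-fold, adjusted p = 0.0245). Against time 0 it was higher by 3.08 at 12 and 24 and by 1.71 at 48 and 72, so the later signals stood between the start and the peak.

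CXCR4 (the receptor of the chemokine CXCL12) had 1333 and 1221 in c6 and 1154 and 1684 in c8 at 48 and 72, against 2638 and 2489 in c6 and 2976 and 2050 in c8 at 12 and 24. It fell by 0.91 (SE 0.14, 1.88-fold, adjusted p = 0.0321). CXCR4 over all 17 arrays had an adjusted p of 0.076. Its ligand CXCL12 had a change of 0.06 ± 0.14 (adjusted p = 0.927). CXCR4 stood above time 0 by 3.08 at 48 and 72, having stood above it by 3.99 at 12 and 24.

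DCX (doublecortin, a microtubule protein of migrating neurons) had 511 and 418 in c6 and 326 and 356 in c8 at 48 and 72, against 773 and 914 in c6 and 877 and 550 in c8 at 12 and 24. It fell by 0.92 (1.89-fold, adjusted p = 0.0321), and over all 17 arrays DCX had an adjusted p of 0.057. COL4A4, a chain of basement membrane collagen IV, fell by 1.36 (SE 0.22, 2.56-fold, adjusted p = 0.0368), with 164 and 104 in c6 and 45.8 and 47.0 in c8 against 218 and 480 in c6 and 188 and 136 in c8. RGS3, a regulator of G protein signalling, fell by 0.82 (SE 0.14, 1.77-fold, adjusted p = 0.0396), and RGS5 of the same family rose. For DCX, COL4A4 and RGS3 too, the log2 changes against time 0 were larger at 12 and 24 (2.38, 3.58 and 1.65) than at 48 and 72 (1.46, 2.23 and 0.83).

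**Figure D3:**
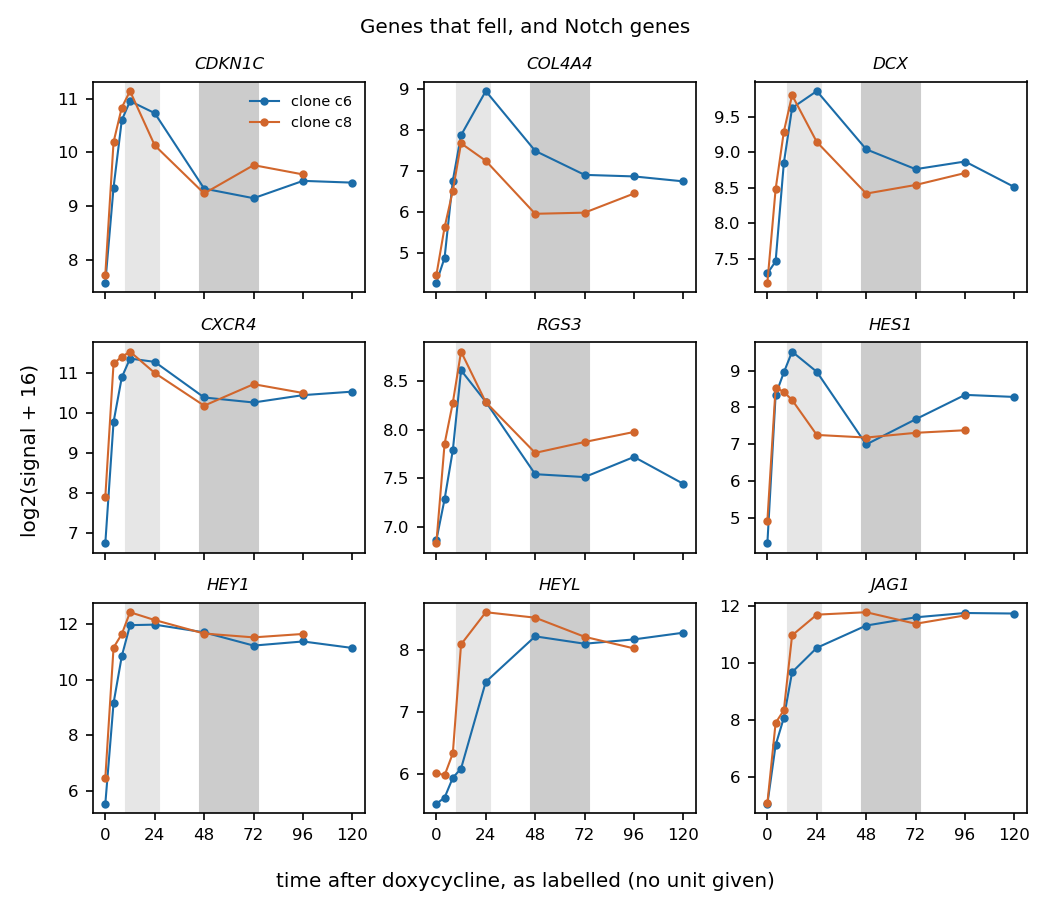
Array signal of 9 genes by time as labelled, for clones c6 and c8, on a log axis. CDKN1C, COL4A4, DCX, CXCR4 and RGS3 fell at 48 and 72 against 12 and 24 and stayed above their time 0 signals. HES1, HEY1, HEYL and JAG1 did not pass the test.

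Of 22 Notch targets tested 0 passed in either direction, against 0.19% of all genes tested, and the median change was 0.03. At that share, a count of 0 in this list or in the lists below says little about its genes. Within both clones 3 targets were lower without overlap and 1 was higher, against 4.99% and 3.92% of all genes tested. HEY1 (a repressor of the HEY family) came nearest to the threshold. It had 3314 and 2377 in c6 and 3218 and 2923 in c8 at 48 and 72, against 3971 and 4024 in c6 and 5491 and 4512 in c8 at 12 and 24. Its change was -0.60 ± 0.12 (adjusted p = 0.078) and all 4 later arrays lay below all 4 earlier ones. Its adjusted p was 0.031 without the c6 array of time 12, 0.035 without the c6 array of time 48 and 0.031 without the c8 array of time 24 (0.007 to 0.787 over all alternatives).

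HES1 (a repressor of neurogenesis) had 112 and 189 in c6 and 129 and 143 in c8 at 48 and 72, against 715 and 484 in c6 and 279 and 137 in c8 at 12 and 24. The phases did not overlap in c6 and overlapped in c8, and the change was -1.19 ± 0.30 (adjusted p = 0.163), with -1.90 in c6 and -0.48 in c8. For HES1, without the c8 array of time 24 the change was -1.52 with an adjusted p of 0.009 (0.009 to 0.787 over all alternatives). HEYL, of the same family as HEY1, had 284 and 260 in c6 and 354 and 282 in c8, against 51.7 and 164 in c6 and 258 and 377 in c8, a change of 0.70 ± 0.31 (adjusted p = 0.488), with 1.38 in c6 and 0.02 in c8.

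The promoters of HES1 and HEYL are printed because RBPJ binds the letters TGGGAA and both windows hold a pair of matches, shown in capitals in either orientation. These letters were in 24.3% of all promoter windows, in 4 of 15 of genes that rose and in 1 of 4 of genes that fell (CXCR4, at -155). In HES1 (chr3:194135898-194136197, GRCh38.p14, plus strand) the matches begin at -84 and -70, and in HEYL (chr1:39639594-39639893, GRCh38.p14, minus strand) at -178 and -99.
HES1: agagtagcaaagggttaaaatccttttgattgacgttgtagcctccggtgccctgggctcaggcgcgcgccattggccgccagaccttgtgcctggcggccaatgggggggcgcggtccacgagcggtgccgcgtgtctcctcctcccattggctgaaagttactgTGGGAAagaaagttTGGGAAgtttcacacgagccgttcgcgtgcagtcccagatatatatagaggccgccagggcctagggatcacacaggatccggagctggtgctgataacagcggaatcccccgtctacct
HEYL: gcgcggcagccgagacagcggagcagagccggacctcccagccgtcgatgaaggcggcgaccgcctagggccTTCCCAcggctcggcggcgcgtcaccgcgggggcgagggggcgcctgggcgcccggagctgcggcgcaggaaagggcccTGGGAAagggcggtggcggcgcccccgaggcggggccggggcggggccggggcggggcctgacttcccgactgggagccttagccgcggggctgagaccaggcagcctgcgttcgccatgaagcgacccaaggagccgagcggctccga

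The other Notch genes named here ranged from -0.57 (HES5) to 0.80 (JAG1) and did not pass. HES5 was lower without overlap within both clones. HES4 changed by -0.25 ± 0.14, HES5 by -0.57 ± 0.19, HEY2 by 0.04 ± 0.26 and NRARP (a feedback inhibitor of the Notch complex) by -0.19 ± 0.14, with adjusted p from 0.300 to 0.974. The ligand JAG1 had 2518 and 3077 in c6 and 3486 and 2630 in c8, against 800 and 1459 in c6 and 1981 and 3285 in c8. Its change was 0.80 ± 0.25 (adjusted p = 0.268), and the phases overlapped in c8. ID1 and ID3, inhibitors of helix-loop-helix factors that respond to BMP signals, had changes of -0.54 ± 0.18 and -0.26 ± 0.14 (adjusted p = 0.315 and 0.591). ID4, of the same family, had a change of 1.06 ± 0.20 (adjusted p = 0.074), with 534 and 663 in c6 and 711 and 588 in c8 against 286 and 201 in c6 and 243 and 492 in c8. Over all 17 arrays ID1 fell (adjusted p = 0.0046) and ID4 rose (adjusted p = 0.027).

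Of 17 collagen genes tested 0 passed in either direction, against 0.19% of all genes tested, and their median change was 0.30. COL3A1 (the main chain of type III collagen) had 3306 and 5429 in c6 and 4285 and 4645 in c8 at 48 and 72, against 69.9 and 964 in c6 and 658 and 2473 in c8 at 12 and 24. All 4 later arrays were higher, and the change of 2.83 ± 0.66 had an adjusted p of 0.144. Within each clone the arrays of 12 and 24 differed more than those of 48 and 72. With a term for each time over all 17 arrays COL3A1 had an adjusted p of 0.002 (0.002 to 0.792 over all alternatives). COL4A1 and COL4A2, the widespread chains of collagen IV, had changes of 0.75 ± 0.19 and 0.56 ± 0.14, opposite in sign to COL4A4. COL1A1 had a change of -0.23 ± 0.28 and the matrix glycoprotein FN1 (fibronectin) of 0.79 ± 0.31 (adjusted p = 0.409). Of 31 matrix glycoproteins and proteoglycans, 1 rose (TNMD) and 0 fell, with a median of 0.15, and over all 17 arrays 4 rose and 0 fell. Among 21 matrix proteases and their inhibitors 0 passed, and TIMP4, an inhibitor of metalloproteases, had a change of 0.90 ± 0.19 (adjusted p = 0.098). Of these 21, 2 rose over all 17 arrays, TIMP4 among them, and 0 fell.

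Of 32 focal adhesion and integrin genes 1 rose (ITGA11), and of 32 actin cytoskeleton genes 0 passed. ACTN1 (an actin crosslinker) had 660 and 779 in c6 and 809 and 1160 in c8, against 320 and 510 in c6 and 431 and 583 in c8, a change of 0.87 ± 0.17 (adjusted p = 0.078). PDLIM5, a LIM protein that binds it, had a change of 1.0 ± 0.20 (adjusted p = 0.093). Over all 17 arrays 3 of the 32 actin cytoskeleton genes rose (ACTN1, PDLIM5 and TPM1) and 0 fell. In the list of chemokine receptors and other motility genes, CXCR4 was the only 1 of 11 that fell and 0 rose. Of 34 axon guidance genes 0 passed. NRP1, a co-receptor of semaphorins, had a change of 0.77 ± 0.19, and the ephrin receptor EPHA4 one of -0.80 ± 0.22. In the fit over all 17 arrays NRP1 rose and EPHA4 fell (adjusted p = 0.044 and 0.042).

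Of 21 mesenchymal markers 0 passed in either direction, with a median of 0.17, and of 14 mesenchymal transcription factors 0, with a median of 0.02. Over all genes tested 0.19% passed. LGALS1 (galectin-1) had 178 and 297 in c6 and 245 and 591 in c8, against 42.4 and 67.2 in c6 and 199 and 190 in c8, a change of 1.37 ± 0.27 (adjusted p = 0.087). S100A4, a calcium-binding protein of motile cells, had a change of 1.09 ± 0.23 (adjusted p = 0.098). Over all 17 arrays 3 of the 21 mesenchymal markers rose (LGALS1, S100A4 and ANXA1) and 0 fell. SNAI2 (Slug, a repressor of epithelial genes) had 900 and 1053 in c6 and 800 and 717 in c8, against 1339 and 1386 in c6 and 1081 and 873 in c8, a change of -0.42 ± 0.11 (adjusted p = 0.166). SNAI2 was lower without overlap in both clones.

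Of 24 adrenergic transcription factors 0 passed and 0 were without overlap within both clones, against 0.19% and 8.91% of all genes tested. Counts of 0 are near these shares in a list of this size. The median change of the list was -0.02, as over all genes tested. PHOX2A had a change of -0.09 ± 0.12, HAND2 of -0.02 ± 0.18 and GATA3 of -0.10 ± 0.10, each a factor of the sympathetic lineage. DBH, the enzyme that makes noradrenaline, had 44.6 and 35 in c6 and 51.1 and 56.4 in c8, against 69.3 and 23.4 in c6 and 63.3 and 66.2 in c8 (-0.14 ± 0.21). At time 0 DBH had 192 in c6 and 245 in c8, so its lower level was in place by time 12. Of 25 genes of the neuronal cytoskeleton and neurites 1 fell (DCX) and 0 rose. MYCN stood between 4238 and 4937 at 48 and 72 and between 4185 and 4580 at 12 and 24 (0.08 ± 0.08, adjusted p = 0.790).

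**Figure D4:**
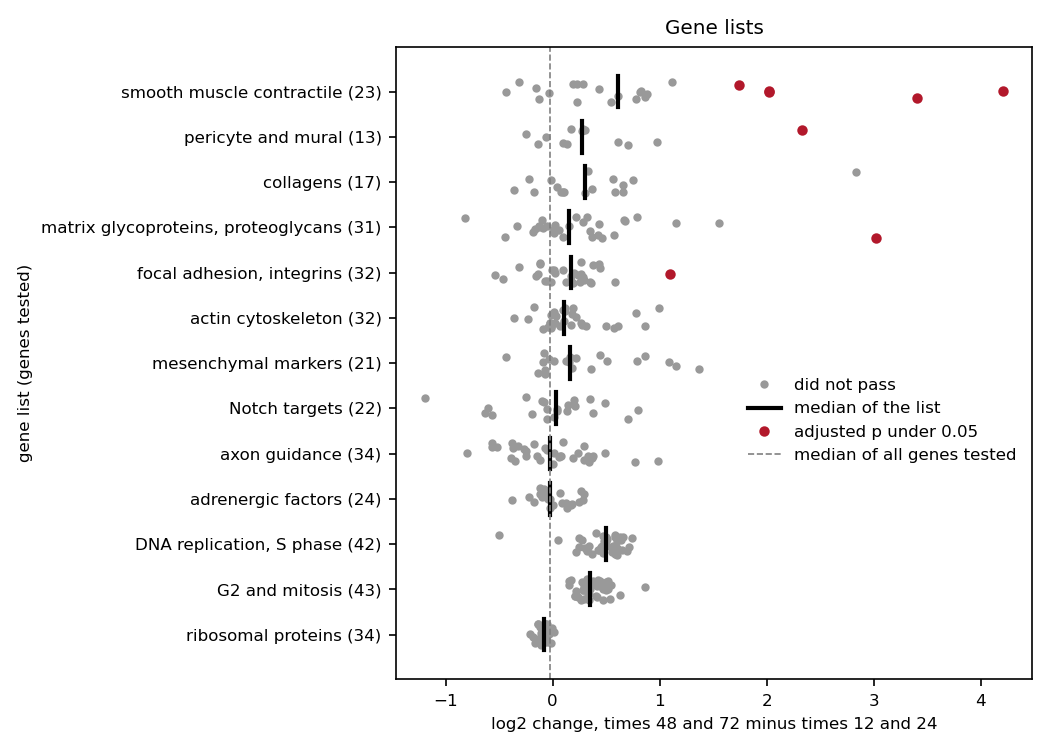
Log2 change at times 48 and 72 against times 12 and 24 for the members of selected gene lists, 1 point per gene tested, with the median of each list marked. The smooth muscle contractile list has a median of 0.61 and holds the largest changes, and the adrenergic transcription factors have a median of -0.02.

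Genes of DNA replication stood higher at 48 and 72 as a group of small changes. Of 42 replication genes tested 0 passed an adjusted p of 0.05, but 41 were higher, 35 of them at an unadjusted p under 0.05. Over all 13675 genes tested, 6239 were higher, and 4.74% were higher at an unadjusted p under 0.05. The median of the replication list was 0.49, against -0.02 over all genes. In c6 the median was 0.51 and in c8 0.50. Of the 42, 7 rose over all 17 arrays, MCM2 and CHAF1B among them, and 0 fell. MCM2 (a subunit of the replicative helicase) had 1909 and 1917 in c6 and 2132 and 2574 in c8, against 1462 and 1300 in c6 and 1458 and 1810 in c8, a change of 0.50 ± 0.10 (adjusted p = 0.096). CHAF1B, a chaperone that places histones on new DNA, had a change of 0.66 ± 0.13 (adjusted p = 0.082). GMNN (geminin, which blocks relicensing of origins) was the single member of opposite sign. It had 2177 and 1920 in c6 and 2240 and 2264 in c8, against 3169 and 2817 in c6 and 3442 and 2812 in c8, a change of -0.50 ± 0.10 (adjusted p = 0.078).

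All 43 genes of G2 and mitosis tested had a higher mean at 48 and 72, against 6239 of all 13675 genes tested. Their median was 0.35, but 0 passed and 0 were without overlap within both clones. Over all genes tested 0.19% passed and 8.91% were without overlap within both clones. MYBL2, a transcription factor of that phase, had a change of 0.86 ± 0.25 (adjusted p = 0.229). MKI67, the marker of dividing cells, had 465 and 550 in c6 and 578 and 434 in c8, against 693 and 200 in c6 and 287 and 447 in c8 (0.44 ± 0.29, adjusted p = 0.664). The low point of the mitotic list came at different times in the clones: its mean log2 signal was lowest at time 24 in c6 (8.56) and at time 12 in c8 (8.85). The replication list was lowest at the same arrays, with 8.69 in c6 and 8.84 in c8. At time 0 the replication list stood at 9.67 in c6 and 9.50 in c8. At 48 and 72 it stood at 9.34 and 9.33 in c6 and at 9.42 and 9.50 in c8, not above time 0 of either clone. The c6 array of time 12 still had a mitotic mean of 9.86, above the 9.33 to 9.61 of the arrays of 48 and 72. Of 21 G1 cyclins and their inhibitors, 1 fell (CDKN1C) and 0 rose, and over all 17 arrays CCNE2 rose too. CCNE1, CCNE2 and CDK2, which act at the start of replication, had changes of 0.47 ± 0.13, 0.74 ± 0.21 and 0.50 ± 0.14, and CCND1 one of 0.20 ± 0.14.

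**Figure D5:**
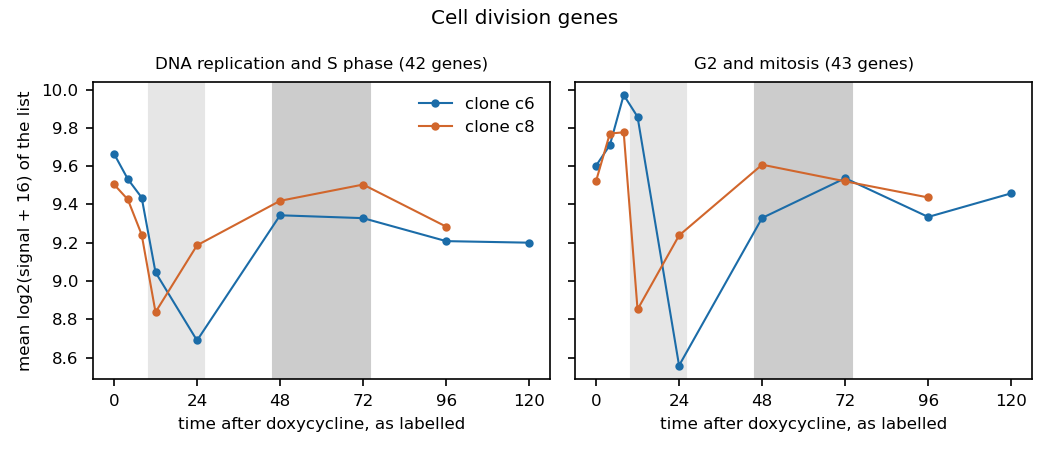
Mean log2 signal of the DNA replication list and of the G2 and mitosis list by time as labelled, in clones c6 and c8, with dark shading over times 48 and 72 and pale shading over 12 and 24. The lowest points are at time 24 in c6 (8.69 and 8.56) and at time 12 in c8 (8.84 and 8.85), and the arrays of 48 and 72 lie above them.

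Among the other lists, 0 members passed in those of growth factor receptors (29 tested), TGF-beta and BMP response (24), YAP and TEAD targets (14), p53 targets (20), interferon response and MHC (23), synapse (23) and ribosomal proteins (34). The share that passed over all genes tested was 0.19%. Among these lists IGFBP5, ID1 and IFI44 fell and ID4, CCN1, CCN2 and AEN rose over all 17 arrays. IGFBP5, which binds insulin-like growth factors, had 881 and 745 in c6 and 283 and 293 in c8, against 1168 and 1723 in c6 and 688 and 417 in c8 (-0.83 ± 0.16, adjusted p = 0.082). AEN, a nuclease induced by p53, had a change of 0.63 ± 0.12 (adjusted p = 0.083). KCNQ1OT1, the noncoding RNA of the imprinted domain that includes CDKN1C, had a change of -0.69 ± 0.14 (adjusted p = 0.093), with 38.8 and 40.2 in c6 and 43.8 and 29.4 in c8 against 83.8 and 73.0 in c6 and 68.2 and 60.3 in c8. IFI44 and BST2, both interferon-induced, had changes of -0.88 ± 0.22 and -1.55 ± 0.47, with adjusted p of 0.166 and 0.252.

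Markers of other cells were summed per array, since in a bulk sample more cells of a type and more RNA per cell cannot be told apart. The 6 smooth muscle markers summed to between 2438 and 6970 at 48 and 72, and to between 147 and 1693 at 12 and 24, and each reached 16 on at least 1 array. Without ACTA2 and TAGLN the other 4 summed to between 103 and 302 at 48 and 72, and to between 57.2 and 106 at 12 and 24. These ranges overlap only across the clones. Within c6 and within c8 both later sums were above both earlier ones. The 5 pericyte markers summed to between 1391 and 3484, against 341 and 981 at 12 and 24. Without RGS5 the other 4 overlapped between the phases, at 208 to 323 against 153 to 308, and CSPG4 stayed under 16 on all 8 arrays. The 15 neuroblastoma markers summed to between 14255 and 15909, against 14263 and 16010, and TH, the enzyme that starts catecholamine synthesis, stayed under 16 on all 8 arrays. The 7 fibroblast markers overlapped between the phases (891 to 1491, against 873 to 1922). Of 5 endothelial markers 4, of 5 leukocyte markers 4 and of 3 Schwann cell markers 2 stayed under 16 on all 8 arrays. The part of the cell mixture in these changes was not tested.

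The steps between neighbouring times are given as a description, since the genes were called on these arrays and the absence of overlap within both clones fixes the sign of the step from 24 to 48. In c6 the median change of the 21 genes that rose was 0.06 between 12 and 24, 1.57 between 24 and 48, 0.58 between 48 and 72 and 0.34 between 72 and 96. In c8 it was 1.03, 0.88, 0.21 and 0.11 over the same steps. The largest of the steps within 12 to 72 was 24 to 48 for 18 of the 21 genes in c6, and 12 to 24 for 12 and 24 to 48 for 9 in c8. With 1 array per clone and time, the difference between the clones in these steps could not be tested. The 5 genes that fell had a median of -0.89 between 24 and 48 in c6 and of -0.82 in c8.

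Single steps over both clones gave no calls. Between 12 and 24, between 24 and 48 and between 48 and 72, 0 genes passed in limma, with 965, 766 and 617 genes at an unadjusted p under 0.05. The smallest p-values between 12 and 24 belonged to PPIC (a peptidyl-prolyl isomerase, 0.90 ± 0.16), ID1 (-0.63 ± 0.12) and PIGQ (an enzyme of GPI anchor synthesis, -1.32 ± 0.24), each with an adjusted p of 0.249. Between 24 and 48 they belonged to ACTG2 (1.29 ± 0.23), ATAD3B (1.04 ± 0.20) and MYH11 (1.58 ± 0.31), at 0.379. Between 48 and 72 they belonged to LINC01963 (-0.97 ± 0.18) and to the matricellular proteins CCN1 (1.49 ± 0.29) and CCN2 (1.17 ± 0.23), at 0.576.

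At time 96 the called genes stayed on the same side of the levels of 12 and 24. Of the 21 genes that rose, all stood above each array of 12 and 24 of their own clone at time 96, and 19 in c6 and 13 in c8 stood above both 48 and 72. All 5 genes that fell stayed below each array of 12 and 24 of their own clone. The genes were called on those same arrays of 12 and 24, which favours this outcome. The shares over all genes tested were not counted, so these counts are a description only. ACTA2 had 7632 in c6 and 6624 in c8 at time 96 and 7076 in c6 at time 120. In the test of time 96 against 48 and 72, 0 genes passed (511 at an unadjusted p under 0.05). The smallest p-values there were those of CCN2 (1.24 ± 0.20, adjusted p = 0.205) and of the smooth muscle genes LMOD1 (1.34 ± 0.23, 0.214) and MYLK (1.25 ± 0.22, 0.229).

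The clones did not differ past the threshold in their change. In the test of c8 against c6, 0 genes passed (789 at an unadjusted p under 0.05, smallest adjusted p = 0.831), although the change was larger in c6 for 15 of the 21 genes that rose. CEMIP, a protein that breaks down hyaluronan, had 50.6 and 38.2 in c8 and 14.2 and 16 in c6 at 48 and 72, against 29.1 and 32.6 in c8 and 56.4 and 68.0 in c6 at 12 and 24. The difference in its change was 1.69 ± 0.29. PMEL, the amyloid-forming protein of melanosomes, differed by -2.47 ± 0.46 and GSR (glutathione reductase) by 1.29 ± 0.25. MYC, a growth-promoting transcription factor, had 167 and 150 in c8 and 534 and 344 in c6 at 48 and 72, against 300 and 340 in c8 and 109 and 397 in c6 at 12 and 24. Its change was -0.94 in c8 and 0.97 in c6, where the phases overlapped.

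The array measures of quality overlapped between the phases. The median signal was 15.5 to 17.9 at 48 and 72 and 16.3 to 19.3 at 12 and 24. The 3' to 5' ratio of GAPDH was 0.952 to 1.06 at 48 and 72 and 1.0 to 1.08 at 12 and 24, and that of ACTB 1.23 to 1.60 and 1.33 to 1.62.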

How the data were processed

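Total RNA of IMR32 clones c6 and c8 was hybridised to Affymetrix arrays, 1 array per clone and time. The authors deposited linear intensities, 1 per probe set; per the submitters' processing notes, the authors used MAS5 and GCOS (versions not given in the sources used here). From the values, each array was scaled to 1 common 2% trimmed mean. The platform annotation gave 1 symbol for 41097 of 54675 probe sets, several for 1801 and none listed for 11777, and 41043 were found in the RefSeq table of GRCh38.p14. Values were taken as log2(value + 16), which understates changes of dim genes. The brightest probe set stood for a gene. Genes whose mean over all arrays of the course was under the 40th percentile (4.68) were left out, leaving 13675 of 19775. TNMD, MYH11 and LYPD1 had means under this cut at times 12 and 24, so they were kept through their brighter later arrays. With no filter 0 genes passed the main test, so the calls depend on this cut.

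Tests used limma 3.58.1 in R 4.3.3 (lmFit, eBayes with an intensity trend, Benjamini-Hochberg over all 13675 genes, threshold 0.05) on the 8 arrays with the clone as a block (5 residual degrees of freedom). Changes against time 0, steps and time 96 came from all 17 arrays with a term per time and the clone (7 degrees of freedom), and the clone difference from the interaction (4 degrees of freedom). Pairing by clone comes from the labels; clone differences at 2 times correlated at 0.13 to 0.37 across genes. The highest share of equal values between 2 arrays was 1.42%. On simulated data of 13675 genes, 83% of 2-fold and 100% of 4-fold changes were recovered, with 5 false calls. The simulated noise was drawn independently for each gene and array, with no shift shared within an array and no trend within a phase. These figures therefore do not cover the dependence of the calls on single arrays.

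The comparison, its members and the 42 gene lists were chosen with earlier results of these data known. Named genes were the 12 largest rises and falls past the threshold without overlap within clones, up to 4 genes of smallest p per list, the 3 of smallest p for tests without calls, and Notch, smooth muscle and lineage genes by name. Alternatives changed the pseudocount, normalization, filter, probe set choice, block, variance trend and arrays. The number of arrays limits the precision.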

Additional observations from a re-analysis of the deposited data

Results flagged for a closer look

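A sample stood apart from the other 3 of its phase for 11 of 198 groups of 4 arrays examined. For 4 independent values from 1 normal distribution, chance would set about 1 in 20 groups apart in this way. Each group here holds both clones and different times, and the groups share arrays, so that rate is only a rough guide. The gap to the nearest array is given as a share of the group's log2 range. In 5 of these the c8 array of time 24 stood apart: ACTA2 (0.844, signal 1393), TNMD (0.914, signal 29.5), LRRC32 (0.849, signal 46.2), HES5 (0.838, signal 16.6) and GUCY1A1 (0.860, signal 350.8). ACTA2, TNMD, LRRC32 and GUCY1A1 were higher on that array than on the other arrays of 12 and 24, and HES5 was lower. EPS8 was lower on the c8 array of time 12 (0.855, signal 140) and DBH on the c6 array of time 24 (0.906, signal 23.4). Among the arrays of 48 and 72, MYCN was lower on the c8 array of time 48 (0.857, signal 4238). On the c8 array of time 72, CHAF1B (0.864, signal 246) and GAP43 (0.835, signal 134) were higher and IFI44 (0.911, signal 116) was lower.

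CEMIP, PMEL and GSR were flagged since their later arrays lay beyond the earlier ones in opposite directions in c8 and c6. The change in c8 minus that in c6 was 1.69 on the log2 scale for CEMIP, -2.47 for PMEL and 1.29 for GSR. These genes had been named for their small p-values in the test of the clone difference on the same arrays, so the flag adds no support. Their adjusted p in the test of the clone difference was 0.831.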

How the results depend on the processing

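No result past the threshold, in the report or in an alternative, changed direction under any alternative tried. All 26 called genes kept their sign wherever they could be fitted, while the number of calls moved widely. Their lack of overlap within both clones fixed the sign when arrays, times or a clone were left out or the block was dropped. The filters, the missing variance trend and the fit over 17 arrays left the estimates unchanged. For these alternatives the kept sign is therefore no test of the calls. Changes that did not pass could change sign. For NOTCH3 the change was 0.14 over both clones and -0.26 in c8 alone, and for HAND2 it was -0.02 and 0.24. Against 26 genes in the report, pseudocount 1 gave 10, the 60th percentile filter 13, 17 arrays with a term for each time 121, and adding time 96 gave 120. No filter on low values, the mean of probe sets and no variance trend each gave 0 (1683, 1370 and 1356 at an unadjusted p under 0.05). Quantile normalization and median centring gave 28 each. With no replicate block for the clone the count was 0 (987 at an unadjusted p under 0.05, smallest adjusted p = 0.0511). Leaving out 1 array gave 0 to 189. Without time 12 the count was 10, without 24 it was 135, without 48 it was 8 and without 72 it was 0, while c6 alone gave 6 and c8 alone 2. Pseudocount 1 on the same probe sets, chosen after seeing the data, gave 10. For the clone difference (0), leaving out 1 array gave 0 to 77, for the step 12 to 24 it gave 0 to 222, for 24 to 48 0 to 84, for 48 to 72 0 to 1, and for time 96 0 to 2; pseudocount 64 gave 9 for time 96. The cause of these shifts was not tested. TAGLN, TNMD and MYH11 passed the threshold in 16 of 27 alternatives each, the most of any called gene. Among the least stable calls were RGS5, MYL4, PLN, SEPTIN4, CXCR4 and RGS3, which passed in 9 of 27 each. Signals under 16 carry little information on fold.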
